A study of Mus musculus with 20 samples.

Results

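Neurospheres raised from the hippocampus of Egfl7 knockout mice were compared with neurospheres from wild-type mice in the first round of sphere formation, over all autosomal genes with a measurable level. A gene was taken when it lay on an autosome and had at least 1 RPKM in 3 or more of the 6 libraries compared, where RPKM is the read count scaled to the length of the gene model and to the size of the library. This kept 12926 of the 36724 genes in the deposited table, of which 11551 (89.4%) are protein-coding and 741 long noncoding. The 3 knockout libraries came from male mice and the 3 wild-type libraries from female mice, so genotype and donor sex cannot be told apart here. Knockout and wild-type donors were C57BL6 mice 8 to 12 weeks old, and the spheres of both groups were untreated and were grown for 5 days in medium with 20 ng/ml EGF and FGF. How the Egfl7 allele was made, and whether it is missing in all cells, is not given in the labels. The series holds 20 libraries. Of the other 14, the 8 second-round hippocampal libraries (4 knockout, 4 wild-type, all from male mice, day 5) are used below as a further measurement, and the 6 from the subventricular zone for the levels of Rab26 and Egfl7 and in a fit of all 20 libraries.

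A neurosphere is a floating cluster that grows from neural stem and progenitor cells kept in EGF and FGF. In the adult hippocampus such cells rest for long periods, and leave rest under control of Notch, which holds them quiescent through the Hes and Hey repressors, and of growth factors, which act through the ERK kinases and cyclin D. Egfl7 is a secreted protein with EGF-like repeats, best known from the endothelium, that is described as binding Notch receptors and integrins. Its gene hosts the microRNA miR-126 in an intron.

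The targeted gene was read at 0, 0 and 0 RPKM in the 3 knockout libraries, against 1.34, 1.07 and 0.566 RPKM in the 3 wild types. Every wild-type library thus held Egfl7 reads (about 14, 11 and 6, inferred from the steps of the values) and no knockout library did. The mean was 0.993 ± 0.394 RPKM in wild types (SD, n = 3). Against the level that 3 reads would give in the knockout libraries (0.30 to 0.315 RPKM), Egfl7 was at least 3.15-fold lower in knockouts. The exact permutation test gave p = 0.1, two-sided, which is the smallest that 3 against 3 libraries allow. Because of its low level Egfl7 is not among the 12926 genes, and both miR-126 precursor genes were listed at 0 RPKM in all 6 libraries. The 3 kept genes on each side of Egfl7 on chromosome 2, Notch1 among them, had log2 differences between -0.19 and 0.29, and none passed the test (limma, lowest adjusted p = 0.671).

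The libraries carried a progenitor profile. Fabp7, a lipid-binding protein of radial glia, ranged from 9582 to 10791 RPKM in knockouts and from 9331 to 11405 RPKM in wild types. The intermediate filament gene Vim and the stem cell factor Sox2 were likewise high in every library, and the pallial genes Lhx2 and Emx2 were above 14 RPKM in all 6, while Emx1 and the ventral genes Nkx2-1 and Dlx5 were listed at 0. Microglial, endothelial and blood markers were low. Of 20 microglial markers 4 passed the filter and 8 were at 0 in all 6 libraries (Aif1, Cx3cr1 and Tmem119 among them), and the 20 summed to 78.8 to 84.6 RPKM in knockouts and 82.0 to 105 RPKM in wild types. Of 19 endothelial markers 2 passed and 4 were at 0 (Cldn5, Ly6c1, Sox17 and Tie1), with sums of 24.3 to 30.4 RPKM in knockouts and 21.7 to 25.5 RPKM in wild types. Xist, the RNA made from the silenced X chromosome of females, was at 0.032, 0.053 and 0.037 RPKM in knockouts and 81.7, 125 and 159 RPKM in wild types. Sequencing depth, inferred from the value steps, was 11.7 to 12.2 megareads (mapped reads) in knockouts and 12.6 to 12.9 megareads in wild types.

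Wild type replicate 1 stood apart. Its values correlated with those of the others at r = 0.957 to 0.967 on the log2 scale across genes, while the remaining 5 libraries correlated with each other at 0.976 to 0.981. Its cell cycle genes were low and its glial genes high. Gfap, the intermediate filament of astrocytes, had 2.31, 2.85 and 4.27 RPKM in the 3 knockout libraries, against 149.5 RPKM in wild type replicate 1 and 10.4 and 5.47 RPKM in wild types 2 and 3. Where a log2 difference or a list median printed in the text moved by over 1.5 times without it, the value without it is also given.

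Differences between genotypes were mostly small. The log2 difference of the means of log2(RPKM + 1) had a median of -0.013 and an SD of 0.27 over the 12926 genes, with 31 genes above 1 and 44 below -1. It was positive for 6141 genes (47.5%) and negative for 6785 (52.5%). On this scale a fold change of a low gene is understated. With limma's moderated test and Benjamini-Hochberg adjustment, 0 genes (0%) passed an adjusted p of 0.05. At an unadjusted p below 0.05 there were 943 (7.3%), 499 higher (3.86%) and 444 lower (3.43%) in knockouts. The 3 knockout values lay above all 3 wild-type values for 946 genes (7.32%) and below all 3 for 940 (7.27%). These shares are the background against which the counts below are read.

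The coding gene with the largest log2 difference was Rab26, a small GTPase of secretory vesicles, on chromosome 17 (24529054 to 24533747, GRCm38). It had 12.4, 8.21 and 26.2 RPKM in knockouts, against 0, 0.404 and 0.296 RPKM in wild types. No value of one group reached the other. The log2 difference was 3.62 ± 0.38 (SE). Rab26 is 1 of 14 genes that passed the filter only through the knockouts, so it had to differ, and its values are a description with no test. In the second round its level varied within both genotypes, with 20.8, 7.30, 0.359 and 0.314 RPKM in knockouts against 0.268, 2.73, 0.131 and 5.39 RPKM in wild types. In the subventricular zone it was at 0.393, 33.2 and 20.0 RPKM in the libraries labelled knockout 1, 2 and 3, and at 24.4, 29.5 and 41.5 RPKM in those labelled wild type 1, 2 and 3. Egfl7 goes against 2 of these labels, with 2.86 RPKM in the library labelled knockout 2 and 0 in that labelled wild type 3, so no direction is drawn from them. In the second hippocampal round, where Egfl7 was at 0 in all 4 knockouts, low and high Rab26 libraries occurred in both genotypes.

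Among the other protein-coding genes of smallest p that stood higher in knockouts, Wrb encodes the membrane receptor that inserts tail-anchored proteins into the endoplasmic reticulum. It had 30.0, 24.95 and 21.5 RPKM in knockouts, against 11.6, 12.3 and 11.8 RPKM in wild types, a log2 difference of 1.03 ± 0.14 (SE, adjusted p = 0.188, limma). Itga6, a subunit of laminin-binding integrins, had 68.0, 74.6 and 81.9 RPKM in knockouts, against 33.9, 49.7 and 37.5 RPKM in wild types, a log2 difference of 0.89 ± 0.15 (adjusted p = 0.415, limma). In both genes every knockout exceeded every wild type. The splicing factor Rnps1 and the ribosomal protein gene Rps2 lie near Rab26 on chromosome 17 (24414675 to 24425898 and 24718121 to 24721927) and averaged 67.3 and 132 RPKM in knockouts and 43.2 and 57.6 RPKM in wild types. Rps2 has many processed copies in the genome, so its value is uncertain, and the small nucleolar gene Snora64 overlaps it. Ccnd2 (a D-type cyclin) and Gins4 (a subunit of the replicative helicase) stood higher as well, at 323 ± 43.9 and 40.8 ± 1.95 RPKM in knockouts and 208 ± 10.8 and 29.0 ± 2.18 RPKM in wild types (SD, n = 3 each). Slc10a7, Tmem37, Cdr2, Fam45a and 2810021J22Rik complete the 12 genes. Rab26 apart, their log2 differences ran from 0.48 to 1.25 and their adjusted p-values from 0.188 to 0.670 (limma).

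The 12 genes of smallest p that stood lower differed less. Bmp3, a ligand of the BMP family, had 1.41, 1.34 and 0.986 RPKM in knockouts, against 3.45, 3.26 and 3.24 RPKM in wild types (log2 difference -0.95 ± 0.16, adjusted p = 0.415, limma). Trafd1, a brake on innate immune signalling, had 42.6, 43.0 and 42.3 RPKM in knockouts, against 78.4, 74.9 and 58.9 RPKM in wild types (-0.71 ± 0.12). The groups were apart in both genes, with the knockout values of Trafd1 close together. Tagln3, an actin-binding protein of neurons, averaged 44.6 ± 6.83 RPKM in knockouts and 89.0 ± 23.4 RPKM in wild types. Cox7a1 (a subunit of cytochrome oxidase), Mrpl36 (a mitochondrial ribosomal protein), Mterf4, Dguok (deoxyguanosine kinase), Sdr42e1, A430033K04Rik, Zfp811 and the chromatin remodelling subunit Bcl7a are others of the 12, and adjusted p-values over the 12 ran from 0.415 to 0.670.

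**Figure D1:**
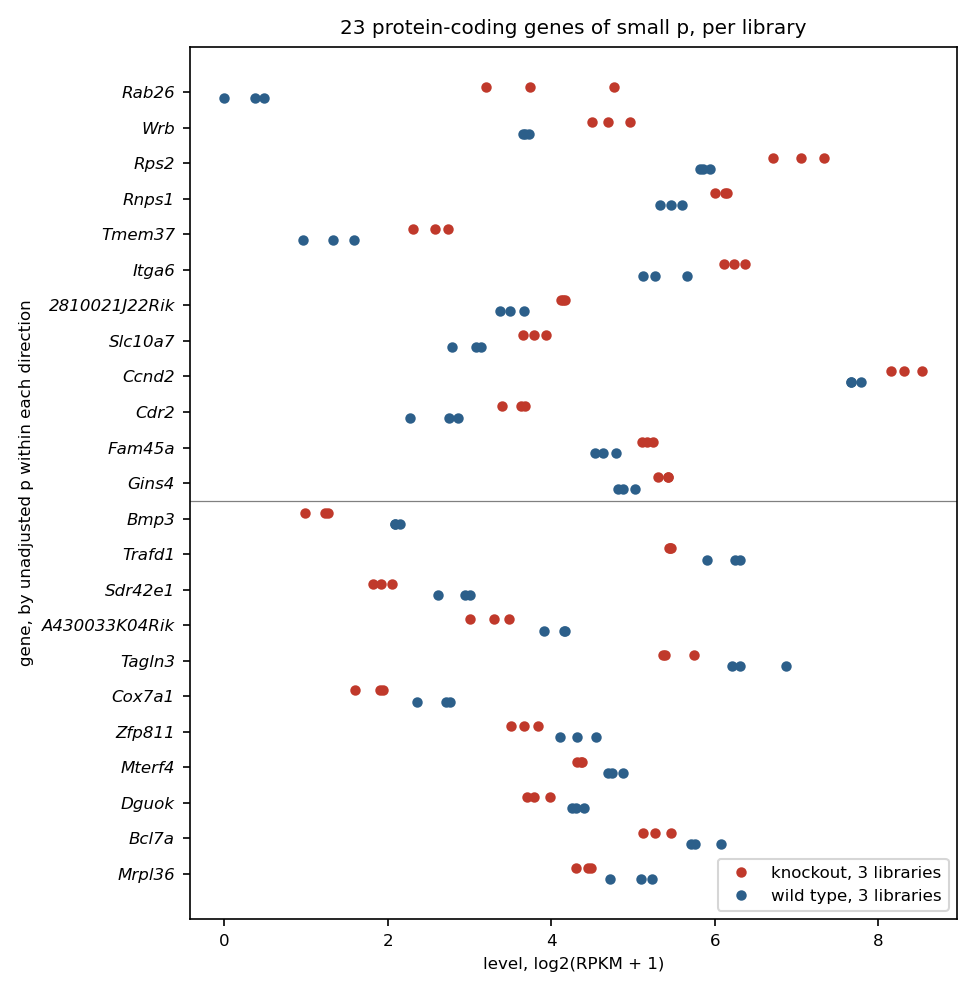
Levels of 23 of the 24 protein-coding genes of smallest unadjusted p whose groups do not overlap, as log2(RPKM + 1) in each of 3 knockout (red) and 3 wild-type (blue) libraries, with 12 higher genes above the line and 11 lower genes below it. Rab26 shows the widest gap, at 3.62, and the genes below the line all differ by less than 1.

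Complement regulator Cd59a, which blocks the membrane attack complex, had 0.445, 0 and 0.220 RPKM in knockouts and 1.89, 2.13 and 1.87 RPKM in wild types, or about 2, 0 and 1 reads against 9, 10 and 9. The log2 difference was -1.29 ± 0.20. Cd59a passed the filter only through the wild types, as 16 genes did, so this is a description with no test. The short noncoding genes Mir6966, Mir7063 and Snord98 passed the filter through 1 group only and rest on few reads. Mir6966 was read about 2, 3 and 1 times in knockouts and 0 times in each wild type, and Snord98 0 times in each knockout and about 1, 2 and 1 times in wild types. Mir7063 was listed at 0 in all wild types, with 11.3, 3.73 and 7.11 RPKM in knockouts. They lie inside the longer genes Narfl, Ap2a2 and Ccar1 on the same strand, so their reads are uncertain, and no fold is given.

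Genes of the cell cycle stood higher in knockouts, with separated groups more often among those of its early phases. Of 43 genes of the G1 and S phases, 41 had a positive log2 difference, with a median of 0.52 against -0.013 over all 12926 genes. The knockout values lay above all wild-type values in 15 of the 43, against 7.32% of all genes, and below in 0. None passed the adjusted test. Ccnd1, the D-type cyclin induced by growth factors, had 361, 378 and 469 RPKM in knockouts, against 109, 230 and 311 RPKM in wild types. Its log2 difference was 1.01 ± 0.35 (adjusted p = 0.670, limma), and 0.58 without wild type replicate 1. Cdk2, the kinase of S-phase entry, had 34.4, 34.7 and 34.3 RPKM in knockouts and 20.4, 29.9 and 23.7 RPKM in wild types. Neither gene's groups overlapped, and wild type replicate 1 was lowest in both. The helicase subunit genes Mcm3 and Mcm5 and the phosphatase gene Cdc25a were likewise apart, with log2 differences of 0.84, 0.80 and 0.49. Without wild type replicate 1 the differences of Mcm3 and Mcm5 were 0.40 and 0.37. Cyclin gene Ccne2 stood at 21.6, 17.3 and 21.8 RPKM in knockouts and 2.84, 15.6 and 16.9 RPKM in wild types. Its log2 difference was 1.02 with wild type replicate 1 and 0.29 without it.

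The mean level of the G1 and S phase genes was 5.24, 5.03 and 5.37 in knockouts on the log2(RPKM + 1) scale, against 4.17, 4.98 and 4.99 in wild types. Wild type replicate 1 lay far below the other wild types. Without it the median log2 difference was 0.24, 41 of 43 genes were positive, 16 lay above and 0 below, when 12.4% of all genes lay above and 10.5% below. The 38 genes of G2 and mitosis were all positive, with a median of 0.32, but only Plk4, the kinase of centriole duplication, had groups that did not overlap. Without wild type replicate 1 their median was 0.05 and 25 were positive, and it was 0.52 without wild type replicate 2 and 0.21 without knockout replicate 3. Their mean levels were 5.63, 5.32 and 5.84 in knockouts and 4.67, 5.65 and 5.43 in wild types, so knockout replicate 2 lay below both remaining wild types. In the second round 41 of the 43 genes of G1 and S were positive (median 0.63) and all 38 of G2 and mitosis (median 1.34), but the libraries spread widely within each genotype. The mean of the G2 and mitosis genes there was 5.37, 3.90, 5.45 and 3.24 in knockouts and 5.64, 2.58, 1.17 and 3.52 in wild types, overlapping. In bulk RNA, fewer cells of a type and less RNA per cell cannot be told apart.

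**Figure D2:**
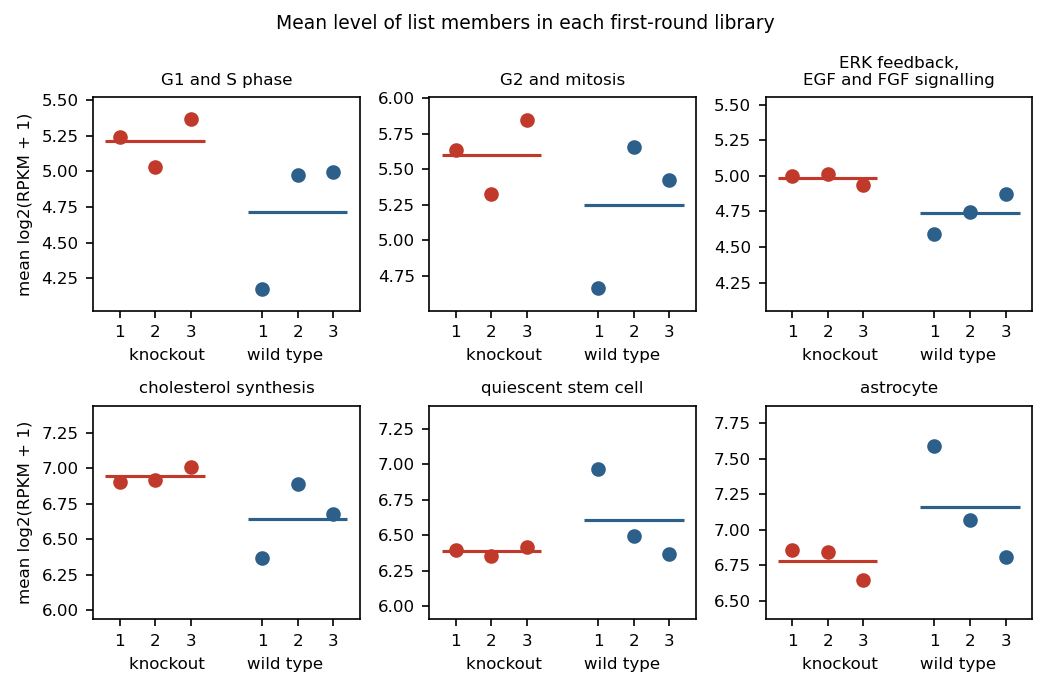
Mean of log2(RPKM + 1) over the members of 6 gene lists in each first-round library (points; knockouts 1 to 3 on the left in red, wild types 1 to 3 on the right in blue) with the group mean as a line. Each panel spans the same range of log2 units. Wild type replicate 1 is lowest for both cell cycle lists (4.17 and 4.67) and highest for the astrocyte list (7.59).

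Targets and brakes of growth factor signalling also stood higher in knockouts. Etv4, Dusp6, Spry1 and Spry2 are switched on by ERK, and Dusp6, the Sprouty genes and Spred1 in turn restrain the pathway. Of 22 genes, 17 were positive, 9 lay above all wild types (7.32% of all genes), 1 lay below (7.27%), and the median was 0.27. Etv4 had 84.96, 90.5 and 88.0 RPKM in knockouts, against 69.3, 64.2 and 63.2 RPKM in wild types. Its log2 difference was 0.42 ± 0.09 (adjusted p = 0.670, limma). Dusp6 had 88.4, 105 and 105 RPKM in knockouts, against 37.2, 55.5 and 72.3 RPKM in wild types (0.89 ± 0.23). Spry1 had 56.0, 67.02 and 51.5 RPKM in knockouts, against 20.9, 36.0 and 44.0 RPKM in wild types (0.83 ± 0.26). All 3 were apart, Etv4 with the narrowest spread in both groups, and the difference of Spry1 was 0.53 without wild type replicate 1. The antisense gene Gm34921 overlaps Dusp6 at 18.6 RPKM in knockouts and 8.43 RPKM in wild types, and the deposited values cannot tell their reads apart unless strand was used in counting.

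The ligand gene Hbegf and the receptor gene Fgfr1 also stood higher, at 24.2 ± 2.20 and 112 ± 9.41 RPKM in knockouts and 15.8 ± 4.92 and 88.2 ± 13.2 RPKM in wild types (SD, n = 3 each). Spry2 averaged 210 ± 12.4 RPKM in knockouts and 153 ± 18.9 RPKM in wild types, and Spred1 150 ± 10.7 RPKM in knockouts and 128 ± 2.12 RPKM in wild types. The gene below was Il17rd, another inhibitor of FGF signalling, at 5.19, 4.14 and 4.20 RPKM in knockouts and 6.47, 5.48 and 6.53 RPKM in wild types. Without wild type replicate 1 the list's median was 0.19, with 9 genes above and 1 below, when 12.4% of all genes lay above and 10.5% below. In the second round, whose libraries are separate, its median was 0.21 and 14 of 22 were positive.

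Immediate early genes, which respond to the same signals within minutes, gave 5 of 24 above and 1 below (7.32% and 7.27% of all genes). Their median was 0.19. Egr1 had 94.7, 77.1 and 82.1 RPKM in knockouts, against 32.4, 56.4 and 61.5 RPKM in wild types (log2 difference 0.79 ± 0.23, adjusted p = 0.670, limma). Klf10 had 44.2, 36.1 and 36.6 RPKM in knockouts, against 9.42, 20.3 and 27.1 RPKM in wild types (1.11 ± 0.33). Every knockout exceeded every wild type in both, and without wild type replicate 1 the differences were 0.51 for Egr1 and 0.70 for Klf10. Btg2, which slows proliferation, stood the other way, at 98.9 ± 10.4 RPKM in knockouts and 131 ± 26.4 RPKM in wild types. The median was 0.08 without wild type replicate 2 and 0.22 without replicate 1.

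**Figure D3:**
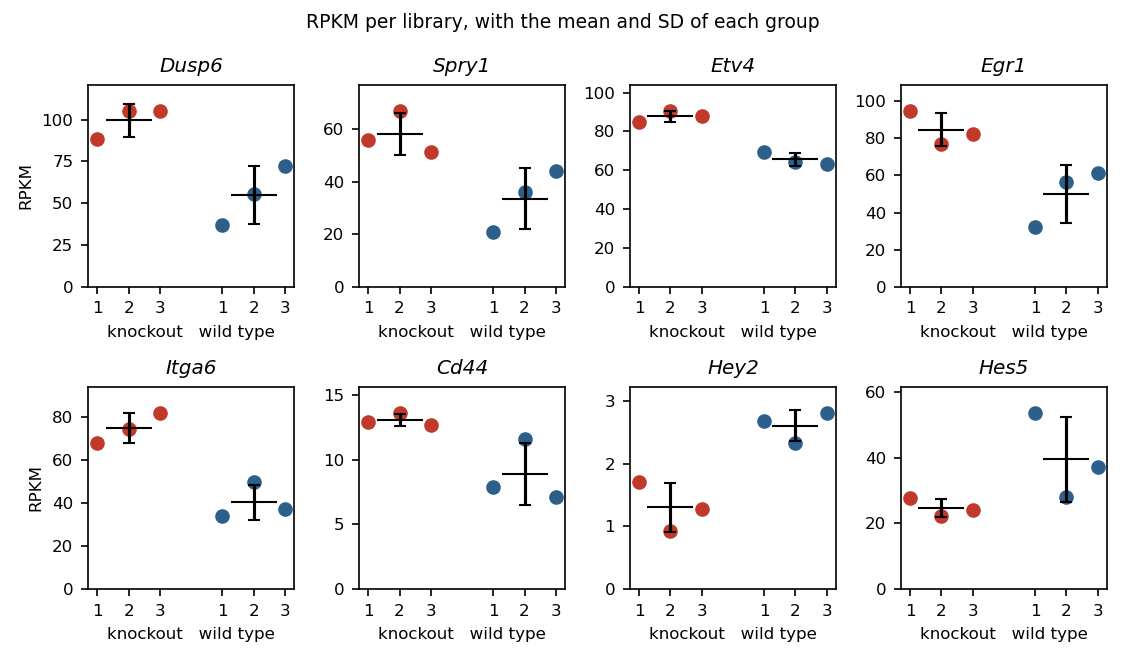
RPKM of 8 genes in each first-round library (points; knockouts on the left in red, wild types on the right in blue) with the group mean (wide bar) and SD (error bar, n = 3). The ERK targets Dusp6, Spry1, Etv4 and Egr1 and the adhesion genes Itga6 and Cd44 lie higher in all 3 knockouts, and the Notch effectors Hey2 and Hes5 lower.

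Notch genes leaned the other way. The list held 31 measured genes: 10 were positive, the median was -0.12, and the knockout values lay below all wild types in 6 and above in 1, against 7.27% and 7.32% of all genes. The ligand gene Dll1 had 51.3, 49.1 and 54.6 RPKM in knockouts, against 62.7, 62.5 and 62.9 RPKM in wild types. Its log2 difference was -0.28 ± 0.09 (adjusted p = 0.670, limma). The receptor gene Notch1 averaged 39.7 ± 0.403 RPKM in knockouts and 43.6 ± 2.38 RPKM in wild types. Psenen, a subunit of the gamma-secretase that releases the Notch intracellular domain, averaged 55.6 ± 3.50 RPKM in knockouts and 70.8 ± 7.75 RPKM in wild types. The groups were apart in all 3 genes. Rfng, a Fringe sugar transferase that tunes ligand choice, was lower and Lfng, its relative, higher, at 36.2 and 122 RPKM in knockouts and 40.9 and 99.2 RPKM in wild types. Of the effectors, the repressor gene Hes5 had 27.6, 22.2 and 24.1 RPKM in knockouts, against 53.5, 27.9 and 37.1 RPKM in wild types (-0.62 ± 0.22), and Hey2 had 1.71, 0.924 and 1.28 RPKM in knockouts, against 2.68, 2.33 and 2.81 RPKM in wild types (-0.66 ± 0.19). Both groups were apart in each, the nearest pair for Hes5 being 27.6 in a knockout and 27.9 in a wild type, and its difference was -0.38 without wild type replicate 1. Without wild type replicate 1 the median was -0.10 with 7 lower and 1 higher, when 10.5% of all genes lay lower and 12.4% higher, while it was -0.03 without knockout replicate 3 and -0.20 without wild type replicate 2. In the second round 5 of the 31 were positive, with a median of -0.13.

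The promoters of Hes5 and Hey2 are shown because these effectors had groups apart and lower in knockouts. Other Hes and Hey promoters are not shown. Both hold the core sequence bound by Rbpj, the DNA-binding partner of Notch. The windows run from 250 bases before to 50 after the RefSeq start (GRCm38.p6), Hes5 at chr4:154960673-154960972 on the plus strand and Hey2 at chr10:30842734-30843033 on the minus strand. Capitals mark GTGGGAA on the printed strand or TTCCCAC, its complement read on the other strand.
Hes5: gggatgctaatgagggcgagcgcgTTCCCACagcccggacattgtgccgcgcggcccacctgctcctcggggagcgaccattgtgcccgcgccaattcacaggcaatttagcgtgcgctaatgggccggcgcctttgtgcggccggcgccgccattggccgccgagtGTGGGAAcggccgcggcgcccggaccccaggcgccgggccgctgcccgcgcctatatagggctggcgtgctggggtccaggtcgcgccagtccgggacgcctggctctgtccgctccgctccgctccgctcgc
Hey2: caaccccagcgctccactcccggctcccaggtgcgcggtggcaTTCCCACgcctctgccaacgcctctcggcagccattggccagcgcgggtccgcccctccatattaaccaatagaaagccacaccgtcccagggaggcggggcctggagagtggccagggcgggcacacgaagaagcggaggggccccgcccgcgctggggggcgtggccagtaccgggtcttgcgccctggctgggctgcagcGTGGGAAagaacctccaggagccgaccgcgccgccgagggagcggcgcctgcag
Each window holds 2 copies, 1 in each orientation. The sequence is present, in one orientation or the other, in 2097 of the 32851 promoter windows (6.38%), and its presence describes the sequence only.

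Genes of resting stem cells and of astrocytes were lower on average in knockouts, with medians near 0 once wild type replicate 1 was left out. Of 24 quiescence genes 18 were negative (median -0.18), and of 20 astrocyte genes 16 (median -0.20). Without wild type replicate 1 the medians were -0.02 and -0.02, with 12 and 10 genes negative. The quiescence median was -0.33 without wild type replicate 3, and the astrocyte median -0.10 without knockout replicate 3. Second-round medians were -0.24, with 3 of 24 quiescence genes positive, and -0.26, with 3 of 20 astrocyte genes positive. Id4, the inhibitor of DNA binding that holds hippocampal stem cells at rest, had 0.682, 1.59 and 0.842 RPKM in knockouts, against 5.63, 3.09 and 1.91 RPKM in wild types (log2 difference -1.10 ± 0.33, adjusted p = 0.670, limma). Its groups were apart with every library included, and its second-round difference was -1.17 ± 0.53. Cpe, a peptide-processing enzyme, had 474, 472 and 559 RPKM in knockouts and 807, 635 and 575 RPKM in wild types. Gfap lay lower in each knockout, but its wild-type values spread from 5.47 to 149.5 RPKM (log2 difference -2.46 ± 1.06, and -1.08 without wild type replicate 1). Oligodendrocyte precursor genes had 0 of 16 separated groups (median -0.20, and -0.12 without wild type replicate 1). Nes, the progenitor filament gene, was at 357, 352 and 397 RPKM in knockouts, above 273, 331 and 294 RPKM in wild types. Its list of 25 neural stem and progenitor genes did not share this direction. There 12 were positive and 13 negative, with a median of -0.05, and 0.10 without wild type replicate 1. Sox4, of the same list, stood lower, at 97.6, 105 and 107 RPKM in knockouts and 202, 111 and 136 RPKM in wild types.

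Adhesion and matrix genes had more separated groups above than below. Of all genes 7.32% lay above all wild types and 7.27% below. Of 28 integrin and adhesion genes, 5 lay above and 0 below, and of 27 matrix genes 4 and 0. Their second-round medians were 0.02, with 16 of 28 positive, and -0.07, with 11 of 27 positive. The 5 were Itga6, the proteoglycan gene Sdc4, the hyaluronan receptor gene Cd44 and the integrin subunit genes Itgb5 and Itgav. Sdc4 had 64.8, 49.7 and 40.4 RPKM in knockouts, against 28.4, 34.6 and 27.1 RPKM in wild types (log2 difference 0.74 ± 0.18, adjusted p = 0.670, limma). Cd44 had 12.9, 13.6 and 12.6 RPKM in knockouts, against 7.88, 11.6 and 7.12 RPKM in wild types. The matrix genes were Lama5, Lama1 and Lama4, which encode laminin chains and hence ligands of Itga6, and the perlecan gene Hspg2. Lama5 had 9.57, 9.10 and 9.45 RPKM in knockouts and 5.75, 6.82 and 6.21 RPKM in wild types, with narrow spread in both (0.52 ± 0.13). Without wild type replicate 1 the log2 differences of Itga6, Sdc4, Cd44, Itgb5 and Itgav were 0.77, 0.71, 0.48, 0.43 and 0.27. With all libraries they were 0.89, 0.74, 0.54, 0.38 and 0.42. Those of Lama5, Lama1, Lama4 and Hspg2 were 0.47, 0.24, 0.26 and 0.26 without that replicate, against 0.52, 0.42, 0.67 and 0.31 with it. The integrin list had a median of 0.16 (0.07 without wild type replicate 1, 0.24 without replicate 2 and 0.10 without knockout replicate 2) and the matrix list 0.13 (0.04 without wild type replicate 3, 0.24 without wild type replicate 1). Summed pericyte and fibroblast markers ranged from 66.02 to 96.5 RPKM in knockouts and 80.5 to 98.7 RPKM in wild types, overlapping. The contractile genes Acta2 and Myl9 averaged 9.68 and 9.31 RPKM in knockouts and 4.49 and 5.58 RPKM in wild types. The values of both overlapped, with Acta2 at 15.9, 7.71 and 5.41 RPKM in knockouts and 4.90, 5.72 and 2.86 RPKM in wild types. The part of such cells in these values was not tested.

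Cholesterol synthesis genes were positive in 24 of 24, with a median of 0.30, and 5 lay above all wild types (7.32% of all genes). Hsd17b7, of the later steps of the pathway, had 27.2, 34.9 and 27.3 RPKM in knockouts, against 16.5, 23.7 and 16.1 RPKM in wild types (log2 difference 0.65 ± 0.18, adjusted p = 0.670, limma). The lanosterol synthase gene Lss, the squalene epoxidase gene Sqle and the sterol carrier gene Stard4 were also apart, and wild type replicate 1 was lowest in these 3 genes. Without it the median was 0.15 with 22 positive and 6 above, when 12.4% of all genes lay above, and without wild type replicate 2 it was 0.47. Second-round differences were positive in 11 of 24, with a median of -0.03.

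The 41 entries of N-glycosylation and membrane insertion in the endoplasmic reticulum, where Wrb belongs, gave 8 above and 1 below. The shares of all genes were 7.32% and 7.27%. The list's median was 0.16, and 0.03 without wild type replicate 1. The translocon genes Sec61a1 and Sec61g averaged 166 and 32.4 RPKM in knockouts and 134 and 24.5 RPKM in wild types. Ost4, a subunit of the oligosaccharyltransferase, stood lower at 108 ± 15.9 RPKM in knockouts and 141 ± 14.02 RPKM in wild types. Tusc3, another subunit, is listed at 2 positions, of which the downstream one was at 36.4, 44.1 and 54.3 RPKM in knockouts and 14.6, 27.4 and 19.5 RPKM in wild types, while the upstream one overlapped.

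Interferon-stimulated genes split, with 3 of 15 above and 3 below, when 7.32% of all genes lay above and 7.27% below. Only 4 of the 15 were positive, with a median of -0.14, and -0.07 without wild type replicate 1. The guanylate-binding proteins of the antiviral response, Gbp3, Gbp5 and Gbp7, averaged 14.8, 1.91 and 12.1 RPKM in knockouts and 10.2, 0.94 and 7.46 RPKM in wild types. Rtp4, Isg15 and Ifit2 stood lower, at 1.40, 0.741 and 24.7 RPKM in knockouts and 2.86, 1.29 and 29.1 RPKM in wild types. None of the 6 passed the adjusted test, and Isg15 passed the filter only through the wild types, which favoured its place among the lower. In the second round 14 of the 15 were positive, with a median of 0.29. The second-round log2 differences were 0.82, 0.09 and 0.69 for Gbp3, Gbp5 and Gbp7, and 0.16, 0.30 and 0.30 for Rtp4, Isg15 and Ifit2. Of 16 VEGF and angiogenic genes, 0 lay above and only the receptor gene Nrp2 lay below, at 2.92, 3.68 and 4.11 RPKM in knockouts and 4.38, 5.81 and 5.15 RPKM in wild types; Vegfa averaged 14.4 RPKM in knockouts and 10.0 RPKM in wild types with overlapping values. Cytosolic ribosomal protein genes had 4 above and 1 below of 49, and oxidative phosphorylation genes 0 and 1 of 41.

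Heat shock genes had 5 above and 1 below of 18, when 7.32% of all genes lay above and 7.27% below. Their median was 0.08, and 0.04 without wild type replicate 1. The chaperone gene Hsp90aa1 was among the higher, at 276, 253 and 267 RPKM in knockouts and 210, 238 and 224 RPKM in wild types. The co-chaperone gene Dnajb4 stood lower, at 56.1 RPKM in knockouts and 69.2 RPKM in wild types. Wnt, Shh and BMP genes had 4 above and 3 below of 33 (median 0.02, and 0.08 without wild type replicate 1). The Hedgehog receptor gene Ptch1 was among the lower, at 59.1, 53.3 and 56.1 RPKM in knockouts and 65.1, 64.5 and 69.1 RPKM in wild types. Of 8 genes of hippocampal and pallial identity, 8 were negative and Nr2f1, a regional transcription factor, was apart, at 47.1, 52.2 and 56.6 RPKM in knockouts and 81.5, 59.2 and 62.6 RPKM in wild types. The list's median of -0.18 was -0.03 without wild type replicate 1. Among 14 proneural and neuroblast genes, the neuronal tubulin gene Tubb3 alone was apart, at 20.7, 25.3 and 16.2 RPKM in knockouts and 44.0, 27.5 and 29.2 RPKM in wild types. Unfolded protein response genes had 2 above and 2 below of 22, p53 targets 2 and 2 of 20, glycolysis and hypoxia genes 2 and 3 of 28, serine synthesis and Atf4 genes 3 and 1 of 24, and fatty acid synthesis genes 3 and 1 of 18. Antigen presentation genes had 0 of 13 apart. Neural stem and progenitor genes had 3 above and 1 below of 25, nuclear long noncoding RNAs 4 and 0 of 15, complement genes and their regulators 0 and 1 of 6 (Cd59a, which passed the filter only through the wild types), and myelinating oligodendrocyte genes 0 of 11.

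**Figure D4:**
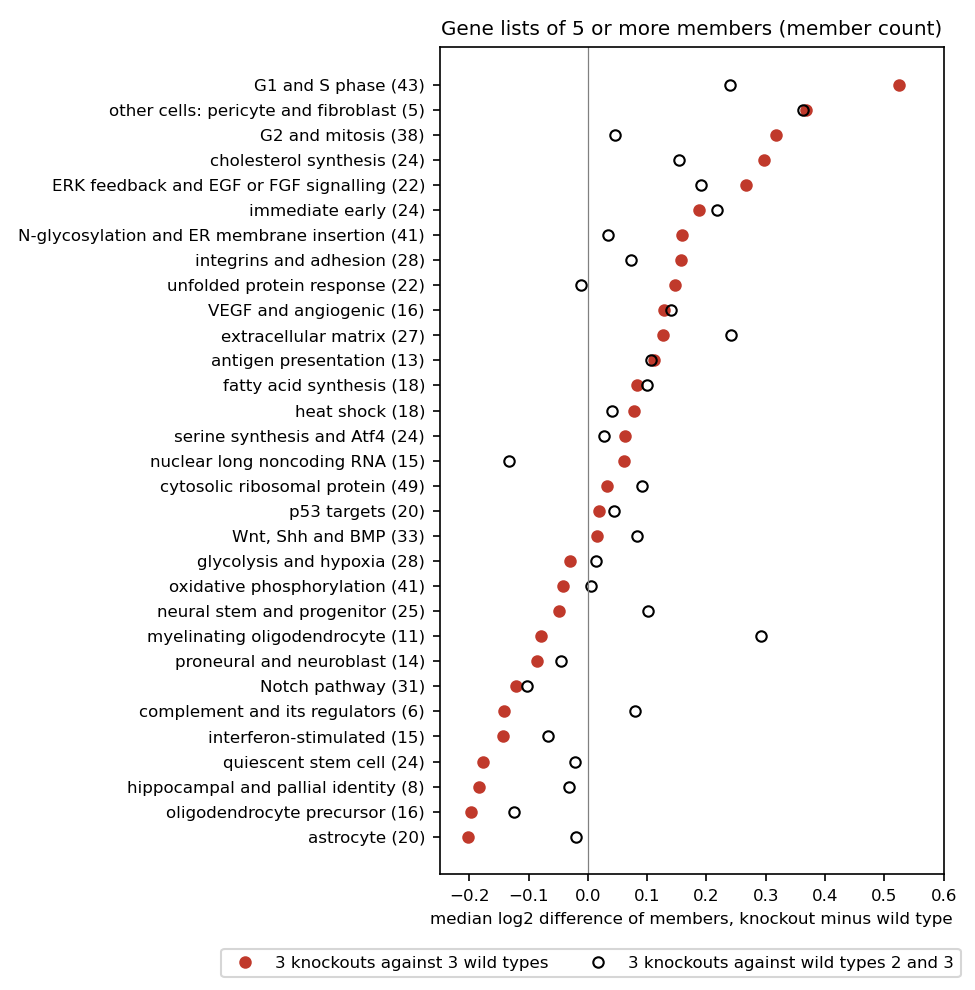
Median log2 difference (knockout minus wild type) of each gene list with at least 5 members, with all 6 libraries (red) and without wild type replicate 1 (open circles). The largest median, 0.52 for the G1 and S phase genes, is 0.24 without that library, and the G2 and mitosis median of 0.32 is 0.05.

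The second hippocampal round gave the same contrast in male donors of both genotypes, in 4 libraries each. Again 0 genes passed an adjusted p of 0.05, 310 (2.4%) had an unadjusted p below 0.05, and the groups were apart in 0.967% of genes. Knockout mouse 1 and wild-type mice 2 and 3 carry the same numbers in both rounds, but the wild types differ in labelled sex, so a number does not mark one animal. Across the 12926 genes, differences in the 2 rounds correlated at r = 0.389, and 63.5% had the same sign. Genes are not independent replicates, and this is a description. The test of the difference between rounds passed for 0 genes, with 215 (1.66%) at an unadjusted p below 0.05. Of the 24 genes of smallest p in the first round, 11 of the 12 higher and 8 of the 12 lower had the same sign in the second, and in 0 were the second-round groups apart.

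In 9 genes (0.0696%) the groups did not overlap in either round and the direction was the same, and in 5 it was opposite (0.0387%). Taken alone, the first round had groups apart in 14.6% of genes and the second in 0.967%. Whether 9 is more than unrelated rounds would give was not tested. The 9 were not chosen by the rule for named genes but listed after their values were seen. Cd44 had 14.6, 14.5, 20.7 and 16.3 RPKM in second-round knockouts and 14.2, 9.39, 4.90 and 13.3 RPKM in second-round wild types (log2 difference 0.69 ± 0.26). Disc1, a scaffold protein of neuronal progenitors, averaged 5.34 RPKM in knockouts and 2.98 RPKM in wild types in the first round, and was higher in all 4 knockouts in the second. The nuclease gene Exd2, the ciliary transport gene Wdr35 and the ciliary gene Ccdc176 also stood higher, the last against an antisense neighbour, Aldh6a1. The ephrin ligand gene Efna2 and the zinc finger gene Mzf1 stood lower. The 2 noncoding genes LOC105244451 and Gm29773 completed the 9.

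**Figure D5:**
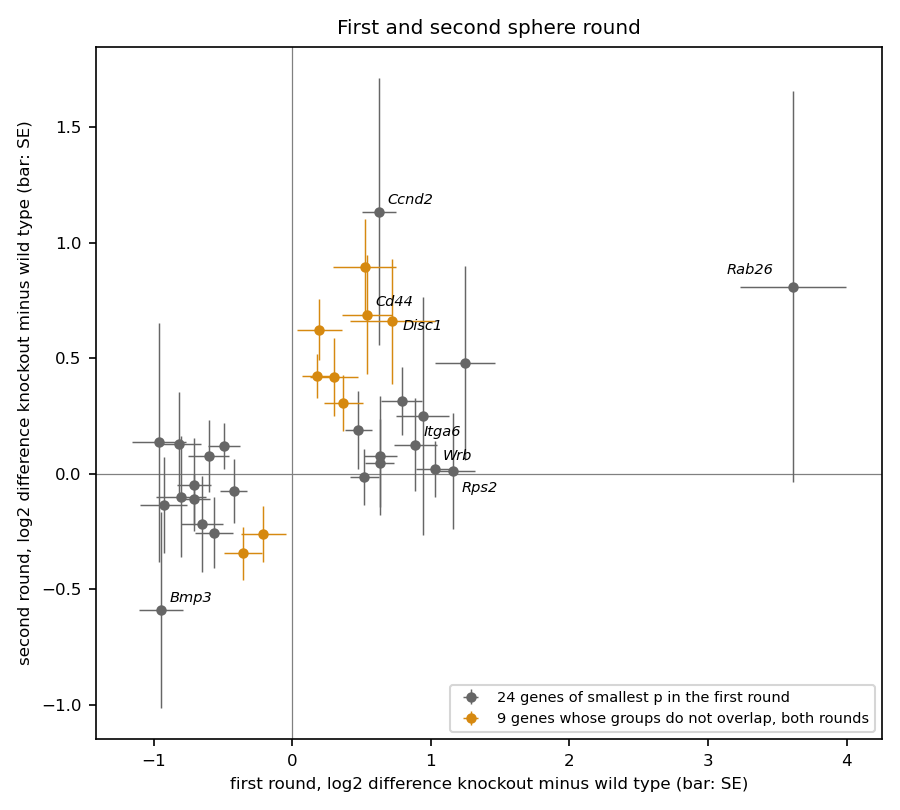
Log2 difference (knockout minus wild type) in the first round against that in the second, with SE bars on both axes, for the 24 genes of smallest p in the first round (grey) and the 9 genes whose groups do not overlap in either round in the same direction (orange). Rab26 and Wrb lie at 3.62 and 1.03 in the first round and at 0.81 and 0.02 in the second, and Cd44 at 0.54 and 0.69.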

How the data were processed

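Per the labels, the RNA was freed of ribosomal RNA, made into strand-specific libraries and captured with mouse exon probes. FastQC 0.11.5, DESeq2 and mm10 (GRCm38) are named, per the submitters' processing notes. Aligner and counting method were not given in the sources used here, and nor was any use of strand. Per the file headers, the deposited values are linear RPKM for each gene. Depth was inferred from the steps between low values. Blank cells were read as 0, decimal commas as points, and the deposited RPKM values were tested as log2(RPKM + 1) with limma 3.58.1 in R 4.3.3 (trend and robust), 1 mean per group, on the 6 first-round libraries and all 13448 genes kept on any chromosome. Adjusted p-values are two-sided, with Benjamini-Hochberg adjustment over those genes. The second round and the difference between rounds came from the same test on 14 libraries. The test was checked on simulated data.

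Members, gene lists and the rule for named genes were chosen with earlier results of these data known. The rule named Egfl7, up to 12 protein-coding genes per direction with the smallest p, groups apart and at least 2 RPKM in the higher group, and in each list the 3 members of smallest p and the 2 of highest level. Other list members in the text were named after their values were seen, mostly among those whose groups do not overlap. Replicates carry a mouse number each in the labels, so p-values measure the spread between these libraries. The filter let 14 genes pass only through the knockouts and 16 only through the wild types, and 11956 had at least 1 RPKM in all 6 libraries. At its edge, Ttll9 had a third-highest value of 1 RPKM and was kept, and Fam19a2, at 0.998 RPKM, was not. Some genes that these rules name are not reported here.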

Additional observations from a re-analysis of the deposited data

Results flagged for a closer look

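In the second round Disc1 had 1 wild-type library, at 2.86 RPKM, far below the other 3 (4.93 to 5.29 RPKM). In 5 genes (0.0387%) the groups were apart in both rounds in opposite directions, with knockouts lower in the first round and higher in the second for 3 and the reverse for 2. The first minus the second log2 difference was -0.51 for 4930430F08Rik, -0.93 for LOC102639505, -0.74 for Zfp641, 2.58 for Mir6922 and 0.23 for Unc50. None passed limma's test of the difference after adjustment, with an adjusted p of 0.352 for LOC102639505 and 1.00 for the other 4. Chance flags about 1 in 20 groups of 4.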

How the results depend on the processing

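The first-round count of 0 autosomal genes called stayed at 0 with other filters, scalings and limma settings, with all 20 libraries, and with the replicate block. It was 3 with a pseudocount of 0.1 (Mir6966, Mir7063, Snord98) and 4 with 0.5 (these and Rab26, all of which passed the filter through 1 group only), and 0 to 4 when each library was left out (1 without knockout replicate 2, 4 without knockout replicate 3, 1 without wild type replicate 1); 517 to 1451 then had an unadjusted p below 0.05, against 943, and 477 with all 20 libraries. The count for the difference between rounds, 0, was 3 with a pseudocount of 0.1, 2 with no filter and 0 to 1 when each library was left out. The second-round count, 0, was 1 with no filter (Egfl7) and 0 to 5 when each library was left out (5 without wild type replicate 2). The cause was not tested. Same-numbered libraries had correlated deviations of -0.167 to -0.034, so the numbers do not pair them, and the replicate block called 0. The Egfl7 difference of -0.97 was -3.38 with a pseudocount of 0.1. The 24 named coding genes kept their direction under every alternative run. They were chosen with groups apart, so this was largely fixed in advance. Of 35 list medians, 11 changed sign under at least 1 alternative. Genes under 3 reads per library cannot be told from absent at this depth.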
